A study of Mus musculus with 6 samples.

Results

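The Ikaros family is a group of 5 genes, Ikzf1 (Ikaros), Ikzf2 (Helios), Ikzf3 (Aiolos), Ikzf4 (Eos) and Ikzf5 (Pegasus), and the members described here are all 13 probe sets of these genes among the 45037 probe sets tested, which named 18193 genes. The genes were taken as a family by name. Messenger RNA was measured in natural killer (NK) cells, innate lymphocytes that kill infected and transformed cells, from the spleens of RAG-/- mice, which cannot assemble antigen receptors and therefore have no mature T or B cells. All 3 groups carry this deletion, and all were sorted as NK1.1+ cells: CD27+CD11b- cells, CD27+CD11b+ cells and CD27-CD11b+ cells, an order usually read as successive stages of maturation. Neither the age nor the sex of the mice nor their number per sample is stated, and no treatment is named. Each subset has 2 arrays, called independent replicates without saying whether separate animals were used, so p-values measure the spread between arrays alone, and part of it may be technical. The number of arrays limits the precision.

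Ikaros proteins are zinc finger transcription factors. The fingers near the amino terminus bind DNA, most of the family recognising a short GGGAA core, and a pair of fingers at the carboxyl terminus joins family members into homodimers and heterodimers, so that a change in the amount of 1 member can alter which dimers form. Bound proteins recruit chromatin regulators, above all the nucleosome remodelling and deacetylase complex NuRD. Ikaros is needed to make lymphocytes, Aiolos is best known from B cells and is required for NK cells to mature fully, and Helios and Eos are best known from regulatory T cells. Pegasus is the most divergent member and is expressed in many tissues. No promoter entry for Ikzf2, Ikzf3 or Ikzf4 was matched in the RefSeq table used here, and no sequence is shown.

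The labelled cell type was checked on 14 NK cell markers, all of which lay above background on all 6 arrays. Background was set at 6.39 on the log2 scale, the 95th percentile of 95 probe sets of genes from other tissues, because the table holds no detection calls. Of 12 T cell markers 2 to 5 lay above it per array, of 11 B cell markers 1 or 2, and of 8 stromal markers 0. Myeloid markers were above it more often: 7 to 16 of 19 monocyte and macrophage markers per array, and 3 to 5 of 8 neutrophil markers. The arrays also divided in a way that crosses the subsets: 3 unnamed probe sets averaged 12.57 to 12.81 in replicate 2 of both CD27+ subsets and replicate 1 of the CD27- subset (the on arrays) and 4.33 to 4.47 in the remaining 3 (the off arrays). Monocyte and macrophage markers moved with it: 19 such genes averaged 7.70, 8.07 and 7.87 among the on arrays, listed by maturation, against 6.13, 7.08 and 6.91 among the off arrays. Neutrophil markers, 8 in all, did likewise, at 7.21, 7.48 and 7.33 against 6.003, 6.58 and 6.62, while 34 cell cycle genes were lower on the on arrays of both CD27+ subsets. Each set holds 1 array of every subset, so each difference below could also be read within both sets. For CD27-CD11b+ replicate 1 the sort description names the CD27+CD11b- gate while the title names the CD27-CD11b+ gate. The title was followed, and results without this array are given where they matter.

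Helios was the family member that fell across the subsets. By its brightest probe set, 1437542_at, Ikzf2 stood at 9.81 and 10.08 in the 2 CD27+CD11b- arrays, at 8.08 and 8.47 in CD27+CD11b+ and at 7.49 and 7.62 in CD27-CD11b+. Every CD27+CD11b- array was above every CD27+CD11b+ array, which in turn was above every CD27-CD11b+ array, and all 6 were above background. The means were 9.94 ± 0.19, 8.27 ± 0.27 and 7.55 ± 0.09 (log2, SD, n = 2). From the first to the last subset Ikzf2 fell 5.24-fold, a log2 difference of -2.39 (SE 0.19, 95% interval -2.84 to -1.94, limma adjusted p = 0.00922). It was the only member probe set of 13 called in this outer comparison, where 127 of all 45037 probe sets were called lower (0.282%) and 161 higher (0.357%). Whether fewer cells contained the transcript or each cell contained less of it cannot be told apart in sorted bulk RNA.

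The second Helios probe set, 1456956_at, gave the same order with more scatter. Its values were 8.77 and 9.55 in CD27+CD11b-, 7.33 and 7.87 in CD27+CD11b+, and 5.55 and 6.78 in CD27-CD11b+. The groups again did not overlap, but the last pair was 1.23 apart on the log2 scale, and its lower value, in CD27-CD11b+ replicate 1, was under background. The outer difference was -2.995 (SE 0.45) and missed the call at adjusted p = 0.0577. Over the alternatives of the analysis its adjusted p ran from 0.0120 to 0.304. The third probe set, 1421643_at, was under background on all 6 arrays, at 4.23 to 4.67, and its outer difference was -0.41 (95% interval -0.75 to -0.06, adjusted p = 0.263). Its arrays too stood in descending order without overlap. The dim probe set is annotated to the RefSeq messenger RNA of Helios and the brighter ones to expressed sequence tags, and which part of the transcript each one reads was not analysed here.

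**Figure D1:**
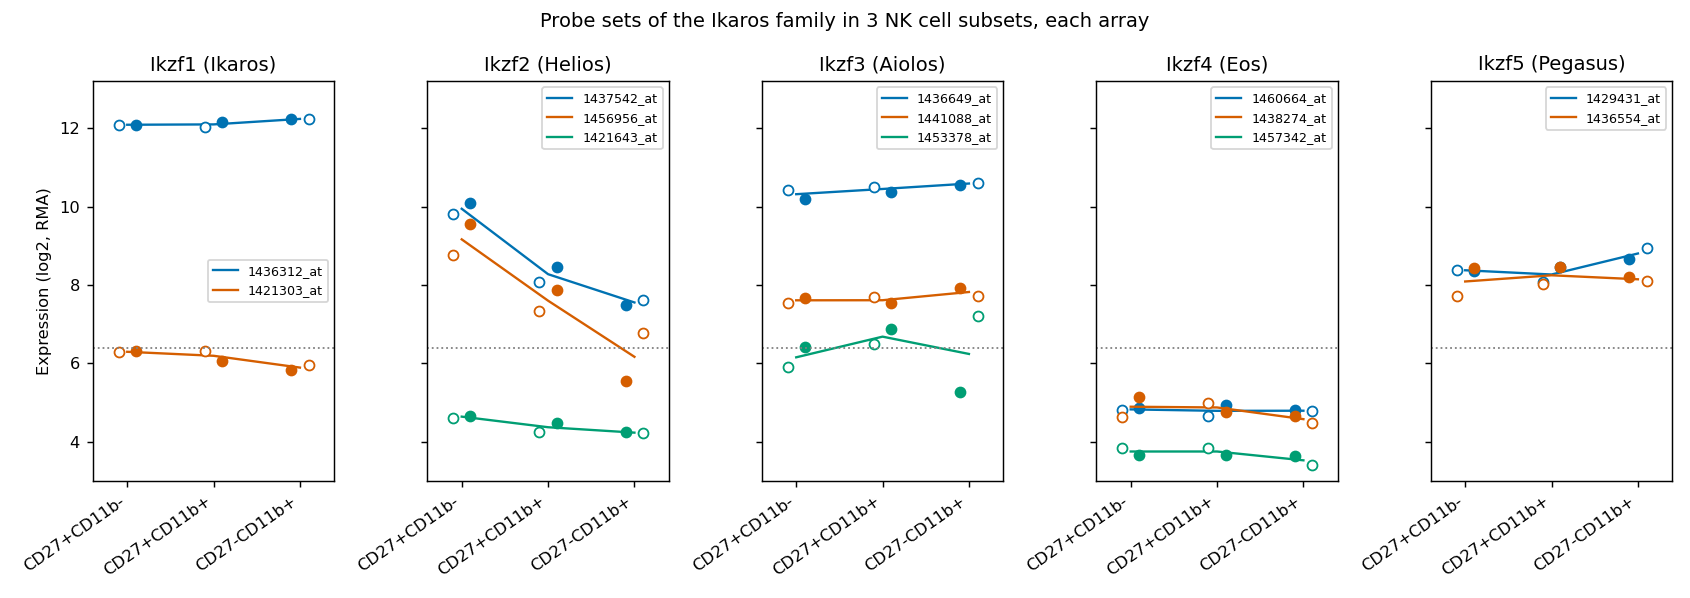
Expression (log2, RMA) of the 13 probe sets of Ikzf1, Ikzf2, Ikzf3, Ikzf4 and Ikzf5 in each array, with 1 panel per gene, 1 colour per probe set, lines through the subset means, filled circles for the on arrays, open circles for the off arrays and a dotted line at the background level of 6.39. The Helios probe sets decline from left to right, from 9.94 to 7.55 for the brightest, but 1421643_at does so under background on all 6 arrays. The subset means of the brightest probe set of every other member span at most 0.54. Levels cannot be compared between probe sets.

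Array by array, all 3 Ikzf2 probe sets, 1 of them (1421643_at) under background throughout, stood lower in each later subset with no overlap. The same held for 1109 of 45037 probe sets (2.46%). None of the other 10 member probe sets did so, and 0 of 13 stood higher in each later subset, against 4.35% of all probe sets. The F test over the 3 subsets called 1 member, Ikzf2 by 1437542_at (F = 87.3, adjusted p = 0.0255), where it called 93 probe sets in all (0.206%). This call was lost when any array but CD27-CD11b+ replicate 2 was left out: the adjusted p was 0.0757 and 0.0741 without replicate 1 and 2 of CD27+CD11b+, 0.185 and 0.243 without those of CD27+CD11b-, and 0.0882 without CD27-CD11b+ replicate 1. The outer call was lost without CD27+CD11b- replicate 1 (adjusted p = 0.0807) or replicate 2 (adjusted p = 0.109), at differences of -2.52 and -2.26.

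Of the Helios decline by the brightest probe set, the larger measured part lay at the gain of CD11b. There, CD27+CD11b+ cells had 3.18-fold less Ikzf2 than CD27+CD11b- cells by 1437542_at, a log2 difference of -1.67 (SE 0.19, 95% interval -2.12 to -1.22). This was the 40th most negative difference of 45037 probe sets, and the second Helios probe set, at -1.56 (SE 0.45), was the 48th. Over all probe sets limma called 0 in either direction in this comparison (0%), although 1339 had an unadjusted p under 0.05, among them these 2 member probe sets, and the adjusted p of 1437542_at was 0.153. With 1 probe set per gene, and so 18193 tests in place of 45037, the same difference passed at adjusted p = 0.0217 as 1 of 16 genes called lower (0.0879%).

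From CD27+CD11b+ to CD27-CD11b+, at the loss of CD27, Ikzf2 was lower again by -0.72 (SE 0.19, 95% interval -1.17 to -0.27), or 1.65-fold, and did not pass (adjusted p = 0.365). The test called 9 probe sets lower (0.02%) and 9 higher (0.02%), with 0 members among them. By 1456956_at the difference was -1.43 (SE 0.45, adjusted p = 0.448), about as large as at the first step. The step difference, loss of CD27 minus gain of CD11b, was 0.95 for 1437542_at (SE 0.32, unadjusted p = 0.0239, adjusted p = 1) and 0.13 for 1456956_at (SE 0.79, adjusted p = 1). Limma called 0 of 45037 probe sets for this contrast (0%), with 1146 at an unadjusted p under 0.05, so that the 2 steps were not shown to differ.

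Because the Helios values did not overlap between subsets, a decline within both sets of arrays was given in advance. Only the sizes within each set add to it. Among the off arrays alone, 1437542_at gave -1.73 at the gain of CD11b, -0.46 at the loss of CD27 and -2.19 in the outer comparison. Among the on arrays alone it gave -1.61, -0.98 and -2.59. For 1456956_at the loss of CD27 gave -0.55 with off arrays and -2.31 with on arrays, the latter holding the low value of CD27-CD11b+ replicate 1. With the division as a block the outer difference of 1437542_at had adjusted p = 0.0121. Without CD27-CD11b+ replicate 1, whose sort description and title disagree, it was -2.32 (adjusted p = 0.0475).

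**Figure D2:**
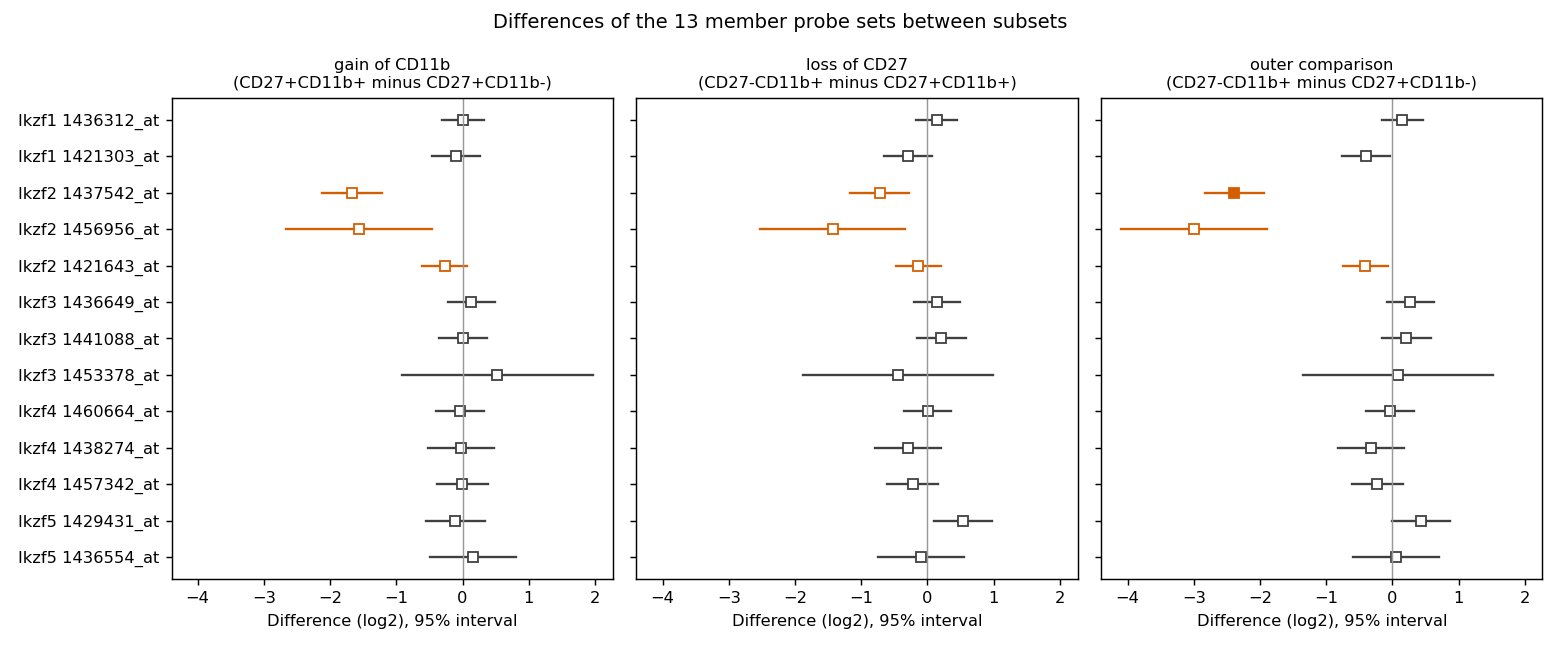
Log2 difference with its 95% interval (not adjusted for the number of probe sets) for each of the 13 member probe sets in 3 comparisons; squares are filled where the limma adjusted p was under 0.05, and Helios is in orange. Only the outer difference of 1437542_at, -2.39, is filled, and the intervals of the brightest probe sets of Ikaros and Aiolos include 0 in all 3 panels.

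Ikaros, the founding member of the family, was not called in any comparison. Ikzf1 by 1436312_at was 12.09 and 12.08 in CD27+CD11b-, 12.04 and 12.15 in CD27+CD11b+, and 12.23 and 12.24 in CD27-CD11b+. The 6 arrays thus lay within 0.200 of each other on the log2 scale. The CD27-CD11b+ arrays were the highest, an order whose share among all probe sets was not counted. The outer difference was 0.15 (95% interval -0.16 to 0.46, adjusted p = 0.656), so that a change of more than 1.38-fold lies outside the interval. At the gain of CD11b the difference was 0.01 (95% interval -0.30 to 0.32), and at the loss of CD27 it was 0.14 (95% interval -0.17 to 0.45). The second Ikaros probe set, 1421303_at, was under background on all 6 arrays, at 5.83 to 6.32, and pointed the other way, with an outer difference of -0.40 (95% interval -0.77 to -0.04, adjusted p = 0.291).

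Aiolos, which forms dimers with Ikaros, was not called either. Ikzf3 by 1436649_at was 10.42 and 10.20 in CD27+CD11b-, 10.51 and 10.38 in CD27+CD11b+, and 10.56 and 10.61 in CD27-CD11b+. The middle subset overlapped the first. The first and last did not overlap, but how often this occurs among all probe sets was not counted. The outer difference was 0.27 (SE 0.14, 95% interval -0.08 to 0.62, adjusted p = 0.452), with 0.19 among off arrays and 0.35 among on arrays, and a change of more than 1.54-fold lies outside the interval. A second probe set, 1441088_at, lay between 7.53 and 7.93 and gave 0.21 (95% interval -0.15 to 0.58). The third, 1453378_at, was around background and scattered: its values were 5.90 and 6.41, then 6.49 and 6.88, then 5.26 and 7.22. Its lowest value came from CD27-CD11b+ replicate 1 and its highest from replicate 2 of the same subset, 1.97 apart, so its interval of -1.35 to 1.52 in the outer comparison leaves the direction undetermined. The same array held the lowest value of the Helios probe set 1456956_at.

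Eos was not measured above background in any subset. The 3 probe sets of Ikzf4 lay between 3.42 and 5.14 on all arrays, with outer differences of -0.03, -0.32 and -0.23 and adjusted p between 0.542 and 0.942. These log2 differences are not read as fold changes of Eos, because a transcript at this level has only an upper bound.

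Pegasus was measured by 2 probe sets, and neither was called in any comparison. Ikzf5 by 1429431_at was 8.39 and 8.36 in CD27+CD11b-, 8.07 and 8.46 in CD27+CD11b+, and 8.67 and 8.94 in CD27-CD11b+. Both CD27-CD11b+ arrays were above the other 4, an order whose share among all probe sets was not counted. The difference at the loss of CD27 was 0.54 (SE 0.18, 95% interval 0.10 to 0.98, adjusted p = 0.482), made of 0.86 among off arrays and 0.21 among on arrays. By 1436554_at the values were 7.73 and 8.44, 8.02 and 8.47, and 8.19 and 8.10, and the same difference was -0.10 (95% interval -0.75 to 0.55), of the opposite sign. In the outer comparison both were positive, at 0.43 (95% interval -0.01 to 0.87, adjusted p = 0.348) and 0.06 (95% interval -0.59 to 0.70, adjusted p = 0.948). On that probe set the on arrays were higher than the off arrays by 0.71, 0.45 and 0.09 in the 3 subsets, in the order of maturation.

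Over the whole family, 8 of 13 probe sets had a mean above background in at least 1 subset. An unadjusted p under 0.05 was reached by 2 members at the gain of CD11b, both lower, by 3 at the loss of CD27, 2 lower and 1 higher, and by 4 in the outer comparison, all lower. Of those 4, 3 were the probe sets of Ikzf2, and 2, 1421303_at and 1421643_at, were under background on all 6 arrays. Over all probe sets 1.5% were lower and 1.47% higher at the gain of CD11b at this threshold, 2.61% and 6.11% at the loss of CD27, and 4.99% and 9.88% in the outer comparison. The 52 genes of other tissues, used to set the background, had a median outer difference of -0.13, with 8 lower and 1 higher at an unadjusted p under 0.05. The median difference of the 13 was -0.02 at the gain of CD11b, -0.14 at the loss of CD27 and -0.03 in the outer comparison, beside medians of -0.00, 0.00 and -0.01 over all probe sets.

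The machinery that Ikaros proteins work through was described next, each gene by its brightest probe set, from lists chosen with earlier results of these data known. All 13 measured genes of the NuRD complex lay above background on every array, and 0 of 13 passed in any of the 3 comparisons. The remodelling ATPases Chd4 and Chd3 differed by -0.16 (SE 0.15, adjusted p = 0.692) and -0.38 (SE 0.16, adjusted p = 0.343) in the outer comparison, and the deacetylases Hdac1 and Hdac2 by 0.14 and -0.03. The subunits Mta1, Mta2 and Mta3 differed by 0.455, 0.68 and 0.43 (adjusted p = 0.539, 0.355 and 0.330), Mta2 having the largest difference of the list. Of the 13 differences 6 were positive. The list's median outer difference was -0.03, beside -0.01 over all probe sets. Of 4 other co-repressors measured, Ctbp1, Ctbp2, Sin3a and Sin3b, 0 passed, with differences of 0.43, -0.51, 0.37 and 0.12.

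Cereblon and its ubiquitin ligase partners, through which thalidomide-like drugs destroy Ikaros and Aiolos in human cells, gave 0 of 5 genes past the test in each comparison. Crbn itself differed by -0.18 (SE 0.14, adjusted p = 0.610) in the outer comparison. Its partners Ddb1, Cul4a, Cul4b and Rbx1 differed by 0.34, 0.33, -0.15 and 0.55. The list's median was 0.33, with 3 of 5 positive, beside -0.01 over all probe sets. Of 7 measured kinase and phosphatase genes reported to act on Ikaros, 0 passed. The catalytic subunit genes of casein kinase 2, Csnk2a1 and Csnk2a2, differed by -0.34 and -0.11, and those of protein phosphatase 1, Ppp1ca, Ppp1cb and Ppp1cc, by 0.57, 0.41 and -0.47.

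Among 16 measured genes that have been described as regulated by Ikaros family proteins in lymphocytes, 10 were above background in at least 1 subset. In the outer comparison 3 fell, 0 rose and 13 did not pass, where 0.282% of all probe sets were called lower and 0.357% higher. At an unadjusted p under 0.05, 6 were lower and 3 higher there, beside 4.99% and 9.88% of all probe sets. The higher ones were Tbx21 (1.10), Ifng (0.615) and Ccnd2 (0.42). At the loss of CD27 Il7r alone fell, where 0.02% of all probe sets were called lower. At the gain of CD11b 0 of 16 passed. There 2 were higher and 3 lower at an unadjusted p under 0.05, beside 1.47% and 1.5% of all probe sets. Il7r, the interleukin-7 receptor alpha chain, was 11.47 and 11.70, then 9.39 and 9.13, then 7.38 and 7.22, and fell by 4.29 on the log2 scale (SE 0.17, adjusted p = 0.00248). Its arrays did not overlap between subsets. Dtx1, which encodes a regulator of Notch signalling, was 9.83 and 8.95, then 7.83 and 7.35, then 6.58 and 6.85, and fell by 2.68 (SE 0.32, adjusted p = 0.0326), again with no overlap. Il2, the interleukin-2 gene that Aiolos is known to silence in T cells, passed at -1.12 (adjusted p = 0.0447) but lay under background on every array, at 4.13 to 5.32. The list's median outer difference was -0.46, beside -0.01 over all probe sets and -0.13 over the 52 genes of other tissues. Genes under background in every subset entered this median. They were Il2, Vpreb1 (-0.74), Dntt (-0.64), Igll1 (-0.60), Foxp3 (-0.27) and Notch3 (0.03). Without CD27-CD11b+ replicate 1, Il7r was the 1 gene of the list called in the outer comparison (-4.37, adjusted p = 0.00818), while Dtx1 was at -2.54 (adjusted p = 0.122) and Il2 at -1.06 (adjusted p = 0.159), and at the loss of CD27 Il7r was at -2.05 (adjusted p = 0.17).

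**Figure D3:**
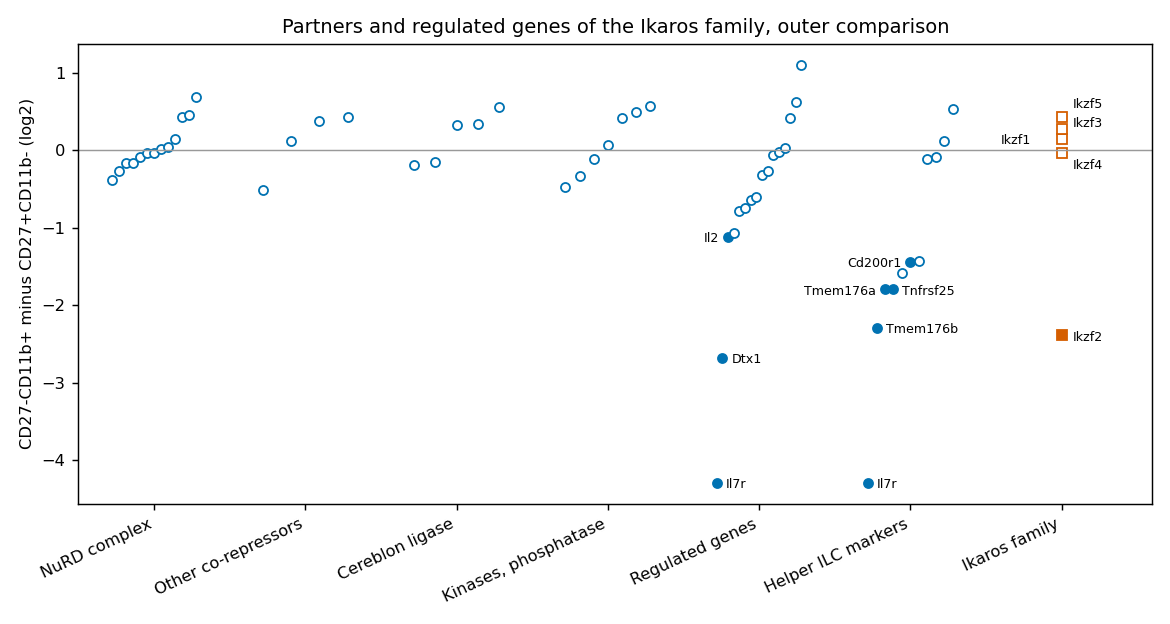
Outer log2 difference (CD27-CD11b+ minus CD27+CD11b-) of each measured gene of 6 lists and of the 5 family members by their brightest probe sets; filled symbols had a limma adjusted p under 0.05. The co-factor lists hold differences of both signs with 0 filled symbols, and their medians run from -0.03 for NuRD to 0.33 for the cereblon ligase. Il7r lies lowest at -4.29, and Ikzf2 is the filled member at -2.39.

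Beside the family, 29 other transcription factors of the NK lineage were measured, of which 2 rose, 1 fell and 26 did not pass in the outer comparison. Over all probe sets 0.357% were called higher and 0.282% lower there. Zeb2 and Prdm1, both regulators of terminal effector maturation, rose by 2.30 (SE 0.15, adjusted p = 0.00524) and 2.34 (SE 0.18, adjusted p = 0.00918), and Myb, a factor of progenitor cells, fell by 2.75 (SE 0.16, adjusted p = 0.00350). Myb was 9.58 to 9.92 in all 4 CD27+ arrays and 6.89 to 7.04 in the CD27-CD11b+ arrays, and it also fell at the loss of CD27 (-2.88, adjusted p = 0.0132; -2.96, adjusted p = 0.0806 without CD27-CD11b+ replicate 1). The 3 outer calls held without that array, at adjusted p = 0.0198, 0.0317 and 0.0185 for Zeb2, Prdm1 and Myb. Eomes and Tbx21, the T-box factors of NK cells, differed by 0.22 (adjusted p = 0.611) and 1.10 (adjusted p = 0.0560).

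The genes whose profile over the 6 arrays lay nearest to that of Helios were Inpp4b, a phosphoinositide phosphatase gene, 2900026A02Rik, the metalloprotease gene Adam8, Cd22, a sialic acid-binding inhibitory receptor of B cells, and Itgb3, the integrin beta 3 chain. Likeness was the root mean square distance between log2 profiles centred on their means, among 498 genes above background in at least 1 subset and with subset means spanning at least 1 log2 unit. The distance was 0.11 for Inpp4b, 0.23 for 2900026A02Rik, 0.23 for Adam8, 0.24 for Cd22 and 0.25 for Itgb3, and Pearson's r over the 6 arrays was 0.998, 0.980, 0.973, 0.972 and 0.969. These r values share 6 arrays and a span fixed by the rule, and 31 of the 498 genes (6.23%) had an r above 0.95. Inpp4b was 6.89 and 7.11 in CD27+CD11b-, 5.03 and 5.39 in CD27+CD11b+ and 4.22 and 4.56 in CD27-CD11b+, and so was above background in the first subset only. Cd22 was 8.11 and 8.03, then 6.71 and 6.38, then 5.85 and 5.86, with the last subset under background. By subset means Adam8 too was above background in the first subset only (7.77, 6.25 and 5.68). Itgb3 was under background in the last subset (mean 6.14). Adam8 and Itgb3 were not called in the outer comparison (limma adjusted p = 0.074 and 0.0519). The probe set of 2900026A02Rik has a name that marks possible matches to other transcripts.

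**Figure D4:**
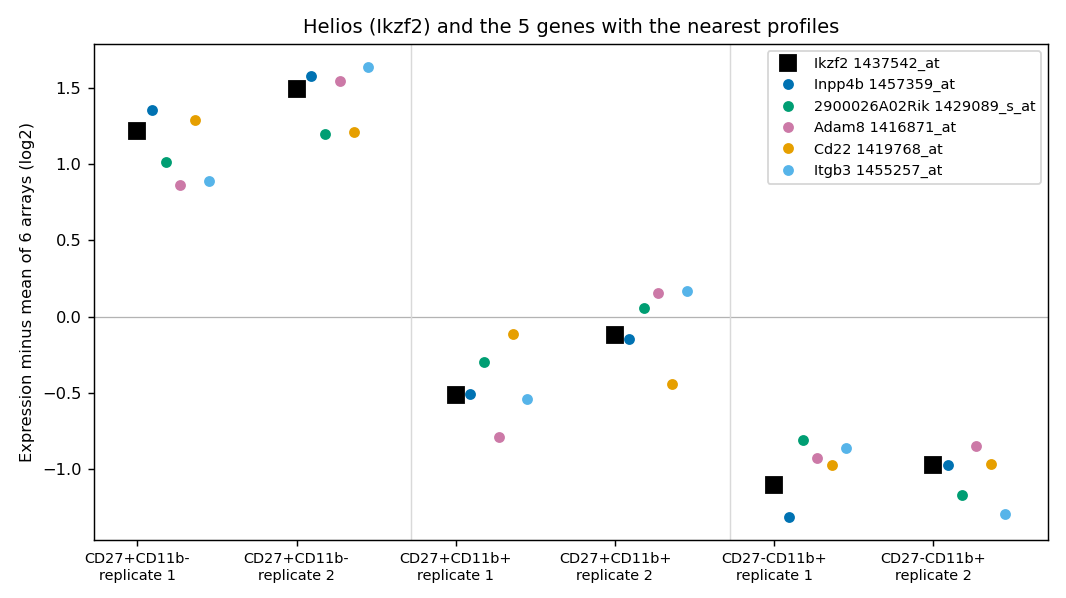
Expression of Ikzf2 (black squares, 1437542_at) and of the 5 genes nearest to it (coloured circles, drawn beside each other) in each of the 6 arrays, as log2 value minus the gene's mean over the arrays. All 6 genes are above their own mean in both CD27+CD11b- arrays and below it in both CD27-CD11b+ arrays, which follows from choosing the 5 by nearness to Ikzf2. Inpp4b, at a distance of 0.11, follows Ikzf2 most closely.

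Markers of other lymphoid cells were read because Helios is also made by other lymphocytes. Of 11 measured markers of helper innate lymphoid cells, 5 fell in the outer comparison (Il7r, Tmem176a, Tmem176b, Cd200r1 and Tnfrsf25), 0 rose and 6 did not pass, and without CD27-CD11b+ replicate 1 the calls were 2, Il7r and Tmem176a. With all 6 arrays, 0.282% of all probe sets were called lower and 0.357% higher in the outer comparison. Il7r is the same gene that was counted above among those regulated by Ikaros family proteins. The mean level of the 11 markers was 7.95 and 8.17 in CD27+CD11b-, 6.86 and 6.98 in CD27+CD11b+, and 6.85 and 6.70 in CD27-CD11b+. Per array 6 to 9 of 11 lay above background. The list's median difference was -1.61 at the gain of CD11b, where Ikzf2 was lower by -1.67, and 0.06 at the loss of CD27, where Ikzf2 was lower by -0.72. Over all probe sets these medians were -0.004 and 0.004. Cell cycle genes, 34 in all, had medians of -0.52 and -0.89 at the same steps and -1.53 in the outer comparison, where 17 were lower and 0 higher at an unadjusted p under 0.05, with 0 of 34 past the adjusted test in any comparison. Their mean level was 8.60 and 7.45, then 8.12 and 6.98, then 6.68 and 6.85, so that within both CD27+ subsets the off array was the higher one by over 1 log2 unit. The T cell markers averaged 6.60 and 6.51, then 6.30 and 6.11, then 5.69 and 5.70, and of them Cd28 and Ctla4 fell in the outer comparison (adjusted p = 0.0488 and 0.042, and 0.161 and 0.127 without CD27-CD11b+ replicate 1). Of the T cell receptor complex genes, Cd3d, Cd3g and Cd3e differed by -2.38 (adjusted p = 0.0917), -2.15 (adjusted p = 0.226) and 0.37 (adjusted p = 0.279) in that comparison, and none passed. Foxp3, which defines regulatory T cells, lay under background on every array, at 3.76 to 4.23. The B cell markers averaged 5.09 to 5.61, with 9 of 11 under background in every subset. Ighm lay at 10.05 to 11.07 on all arrays, with an outer difference of -0.84 (adjusted p = 0.0781), by a probe set whose name marks possible matches to other transcripts. Cd22 was the 1 gene of that list that fell (adjusted p = 0.00752, and 0.0413 without CD27-CD11b+ replicate 1). The part of these cells, and of proliferation, in the Helios difference was not tested.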

How the data were processed

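The authors deposited 1 table of log2 expression values (RMA, per the submitters' processing notes) for 45101 probe sets on 6 Affymetrix mouse 430 2.0 arrays. RMA subtracts background, gives every array 1 common distribution and combines probes into probe sets, so a shift shared by most genes is lost and differences of dim probe sets are compressed. Its version is not given in the sources used here. After leaving out 64 control probe sets, 45037 were tested, of which 34945 had 1 gene symbol in the array annotation, 932 several and 9160 none. The identifiers of 34741 were found in the RefSeq gene table (GRCm38.p6, names only), and 0 symbols changed.

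Samples were grouped by title, but the titles of the CD27+CD11b- samples name CD11b- only and do not mention CD27. Limma 3.58.1 (R 4.3.3) was fitted over all probe sets and 6 arrays with 1 mean per subset, 3 residual and 3.34 prior degrees of freedom, and Benjamini-Hochberg adjustment, and an adjusted p under 0.05 counted as a call. The fit was tested on simulated data. Values are given for each member's brightest probe set (highest 6-array mean) and every called one; other probe sets by range, or where they differ from it, a choice made after seeing values. List members are named where called, and for the co-factor lists also uncalled examples chosen after seeing values. The 5 genes nearest to a member were sought for members above background with subset means spanning at least 1 log2 unit, which left Ikzf2. The members, lists, tests and the division of arrays (probe sets with 3 high and 3 low arrays over 6 log2 units apart) were chosen with earlier results of these data known. Alternatives were 1 probe set per gene, a filter on dim probe sets, median centring, 32 added to linear values, limma trend, only the 4 arrays compared, the replicate number or the division as a block, and leaving out each array. The repeat of the list calls without CD27-CD11b+ replicate 1 was added after seeing the data.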

Additional observations from a re-analysis of the deposited data

How the results depend on the processing

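The Helios difference by its brightest probe set kept its direction under all 14 alternatives in each comparison: it ran from -1.86 to -1.48 at the gain of CD11b (called under 1), from -0.91 to -0.53 at the loss of CD27 (called under 0) and from -2.52 to -2.21 in the outer comparison (called under 12). The brightest probe sets of Ikzf1, Ikzf3, Ikzf4 and Ikzf5 were called under 0 alternatives, and the sign of these uncalled differences changed in places (Ikzf1 and Ikzf5 at the gain of CD11b, Ikzf4 in all 3 comparisons). The number of member probe sets called at the gain of CD11b was 0 and became 1 with 1 probe set per gene. In the outer comparison it was 1 and became 2 with limma trend, with the filter on dim probe sets and with the replicate block, and 0 to 2 with 1 array left out. In the F test it was 1, became 0 with 32 added to the linear values and 2 with the replicate block, and was 0 to 2 with 1 array left out. For the difference between the steps it was 0 throughout.

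Over all probe sets, the gain of CD11b called 0, against 22 with 1 probe set per gene and 3 with limma trend. The loss of CD27 called 18, against 54 with 1 probe set per gene, 2 with 32 added, 5 with the division as a block, 11 with the replicate block, 0 with only the 4 arrays compared and 0 to 415 with 1 array left out, the 415 without CD27-CD11b+ replicate 2. The outer comparison called 288, against 617 with 1 probe set per gene, 127 with 32 added, 68 with only the 4 arrays compared and 18 to 971 with 1 array left out, the 971 without CD27-CD11b+ replicate 2. The F test called 93, against 246 with 1 probe set per gene, 31 with 32 added, 176 with the division as a block and 0 to 371 with 1 array left out. The setting with 1 probe set per gene changes both the number of tests and which probe sets enter, and the filter on dim probe sets, with 17074 tests, called 0, 17, 294 and 93 in the same order. The cause of these shifts was not tested. The replicate number was not taken as a pairing: replicate 1 minus replicate 2 correlated across probe sets at 0.611 between CD27+CD11b- and CD27+CD11b+, and at -0.075 and 0.060 between each of them and CD27-CD11b+.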
